A study of Mus musculus with 4 samples.

Results

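The comparison set cells that overexpressed Wnt5a against cells that overexpressed Wnt4, and asked which microRNAs (miRNAs) were more abundant with one Wnt than with the other. It used 2 of the series' 4 samples, the Wnt5a and the Wnt4 sample, with 1 array each. All cells were MC3T3-E1, an osteoblastic line established from mouse calvaria, kept in proliferation medium (alpha-MEM with 10% FBS) and infected with a recombinant adenovirus that carried the gene named. The other 2 samples overexpressed GFP, the control gene, or Wnt3a, and entered only the normalization. The vector's promoter, the dose of virus, the time after infection and the amount of Wnt protein made are not given in the sources used here. No sample had a replicate, so no difference below could be set against the spread between cultures, and no p-value is given.

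Wnt proteins are secreted ligands of Frizzled receptors. Wnt5a is known mainly for signalling that does not pass through beta-catenin, by way of receptors such as Ror2, and Wnt4 has been described with both kinds of signalling, depending on the cell. In bone, Wnt5a is made by osteoblast-lineage cells and acts on osteoclast precursors, and Wnt4 has been linked to bone formation. A miRNA is a short RNA that guides an Argonaute protein to messenger RNAs, mainly through pairing of its seed (bases 2 to 8), and lowers their translation and stability. One hairpin can give a mature miRNA from each arm, called 5p and 3p.

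Signals of the 7 miRNAs that were at least 1.3-fold higher with Wnt5a, of the 3 with the lowest differences, and of miR-654-5p, the brightest of those detected on the Wnt5a array and not on the Wnt4 array, carry the comparison, so their mature sequences are shown first. They are written 5′ to 3′ with the seed in capitals, from RefSeq's mouse table (GRCm38.p6).
miR-6412: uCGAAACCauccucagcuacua
miR-5100: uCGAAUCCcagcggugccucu
miR-3963: uGUAUCCCacuucugacac
miR-3968: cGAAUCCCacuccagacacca
miR-125b-2-3p: aCAAGUCAgguucuugggaccu
miR-5129-5p: aUGUGGGGgcauugguauuuuc
miR-1983: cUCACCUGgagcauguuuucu
miR-335-5p: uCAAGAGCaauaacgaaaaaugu
miR-125b-5p: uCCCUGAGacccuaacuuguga
miR-21a-5p: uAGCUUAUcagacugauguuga
miR-654-5p: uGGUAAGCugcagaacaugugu

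No seed was shared between these miRNAs. The coordinates are those of the mature RNA in the same RefSeq build. Mature miR-6412 lies at chr10:122648412-122648433 on the plus strand, inside the long noncoding RNA gene Gm36284. The miR-5100 sequence lies at chr11:60728698-60728718 (plus), within the span of the protein-coding gene Mief2, and miR-3968 at chr11:115447969-115447989 (minus), within that of Trim80. For miR-3963, at chr3:151023839-151023857 (minus), no other gene was listed. The miR-1983 sequence, at chr13:21896930-21896950 (minus), overlaps the transfer RNA gene n-TItat14. miR-5129-5p lies at chr2:45023146-45023167 (minus), inside Zeb2. Both arms of Mir125b-2 lie on the plus strand of chromosome 16, at chr16:77646279-77646300 for miR-125b-5p and at chr16:77646318-77646339 for miR-125b-2-3p. The same miR-125b-5p sequence also comes from Mir125b-1, at chr9:41581940-41581961 (plus), inside Mir100hg, so its probe reads the sum of both genes. miR-335-5p lies at chr6:30741314-30741336 (plus), inside Mest, miR-21a-5p at chr11:86584120-86584141 (minus), inside Vmp1, and miR-654-5p at chr12:109723235-109723256 (plus), in the imprinted Dlk1-Dio3 region.

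Each miRNA was read from 1 spot per array, as the median intensity of the spot in scanner units. A miRNA counted as detected where its spot exceeded the mean of the blank spots by over 2 SD, that is 111 units on the Wnt5a array and 86.9 units on the Wnt4 array. By that limit 502 of 1898 miRNA probes were detected with Wnt5a and 547 with Wnt4. Both arrays detected 486 miRNAs, the Wnt5a array alone 16 and the Wnt4 array alone 61. Blank spots averaged 96.9 units with Wnt5a and 74.4 units with Wnt4, and the counts detected on 1 array only depend on where each array's limit is set. Over the 486 miRNAs, the Wnt5a signal exceeded the Wnt4 signal by a median of 0.27 on the log2 scale before correction and normalization, and by 0.00 afterwards. Differences below are log2 of Wnt5a minus Wnt4 after background correction and quantile normalization. Quantile normalization gives miRNAs of equal rank the same level on every array, and 19 of the 486 differences are exactly 0 for that reason.

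The profiles of the 2 arrays were close. The normalized levels correlated at r = 0.996 across the 486 miRNAs, which are not independent replicates, and the differences had an SD of 0.14. Of the 486, 478 (98.4%) differed by less than 1.3-fold. This closeness depends on the processing: the SD was 0.27 with plain subtraction of the blank mean and 0.31 in the authors' deposited table. One miRNA (0.206%) was at least 2-fold higher with Wnt5a and 0 (0%) were at least 2-fold lower. At 1.5-fold the counts were 4 (0.823%) higher and 0 (0%) lower, and at 1.3-fold 7 (1.44%) higher and 1 (0.206%) lower. Of the 7, 6 have names numbered 1000 or above, given to miRNAs catalogued late and mostly little studied, against 262 of the 486 compared, and the 1 lower miRNA, miR-335-5p, does not. A spot-noise standard error (SE) was taken from control probes printed several times on each array. It came to 0.11 where both signals exceeded 1000 units and to 0.16 for dimmer signals. It was taken before quantile normalization. It covers the reading of a spot, not the shifts made by the normalization, the making of the RNA or the culture. In bulk RNA, fewer cells that make a miRNA and less of it per cell cannot be told apart.

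**Figure D1:**
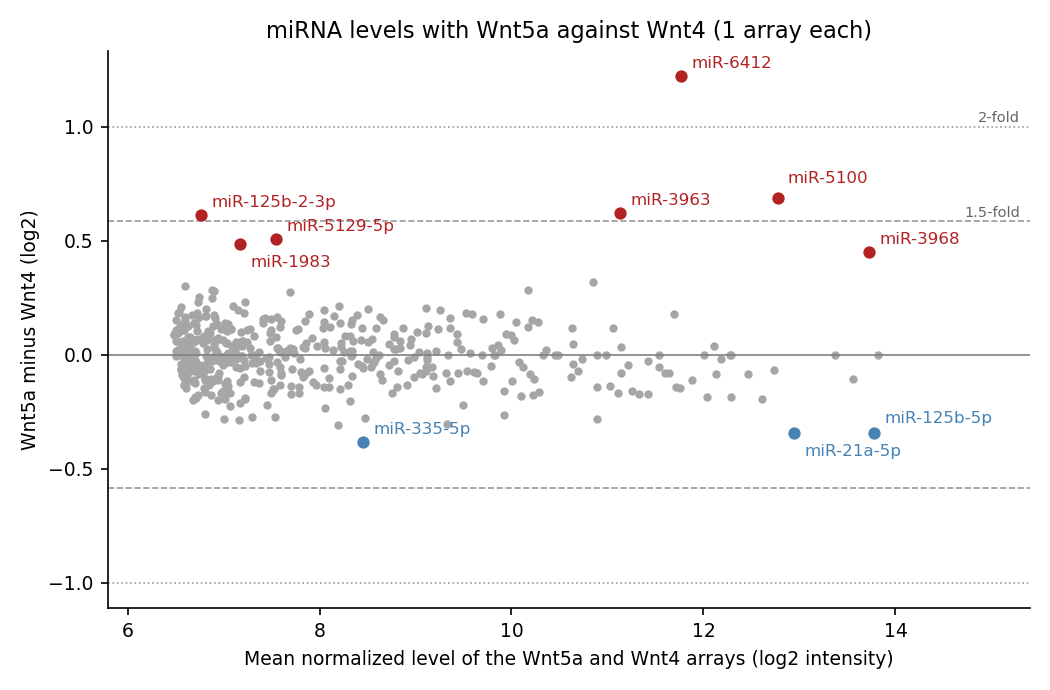
Each point is 1 of the 486 miRNAs detected on both arrays, with its mean normalized level on the x axis (log2 intensity) and the log2 difference of Wnt5a minus Wnt4 on the y axis; dashed and dotted lines mark 1.5-fold and 2-fold. The 7 miRNAs in red are at least 1.3-fold higher with Wnt5a, from 1.22 for miR-6412 to 0.45 for miR-3968, and the 3 in blue have the lowest differences, from -0.38 to -0.34.

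The widest difference was that of miR-6412, a miRNA with little known function. Its signal was 2042 units with Wnt4, 3553 units with Wnt3a, 5529 units with Wnt5a and 5631 units with GFP. The Wnt4 array was thus the low one, and the Wnt5a and GFP arrays were nearly equal. After normalization the log2 levels were 11.15 with Wnt4, 11.94 with Wnt3a, 12.29 with GFP and 12.38 with Wnt5a. The difference of Wnt5a minus Wnt4 was 1.22 ± 0.11 (spot-noise SE), or 2.33-fold. It was at least 2-fold in 17 of 19 alternative ways of processing the arrays. With the spots' own background column subtracted it was 0.84. In the authors' deposited table it was 0.98, where the median over all listed miRNAs was -0.31. Here and below, alternatives that changed only the detection limit or the filter kept each miRNA's own difference by construction.

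A like order held for miR-5100, miR-3963 and miR-3968, which are bright on these arrays and have few described functions. For miR-5100 the signal was 5039 units with Wnt4, 7513 units with Wnt3a, 8331 units with Wnt5a and 9960 units with GFP. Its difference of Wnt5a minus Wnt4 was 0.69 ± 0.11 (spot-noise SE). The Wnt5a and GFP levels were equal after normalization, because the miRNA held the same rank on both arrays. Signals of miR-3963 were 1517 units with Wnt4, 2124 units with Wnt3a, 2688 units with GFP and 3114 units with Wnt5a. Its difference was 0.62 ± 0.11 (spot-noise SE), and the Wnt4 array was again the lowest of the 4. miR-3968 read 9789 units with Wnt4, 13343 units with Wnt3a, 16235 units with GFP and 17183 units with Wnt5a. The difference was 0.45 ± 0.11 (spot-noise SE), short of 1.5-fold, and its Wnt5a and GFP levels also tied at 1 rank. Across the 7 miRNAs past 1.3-fold, the Wnt4 array was the lowest of the 4 in 5. The Wnt5a array was the highest in 4, and tied with the GFP array in miR-5100 and miR-3968.

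The remaining higher miRNAs were dim. miR-125b-2-3p, the less abundant arm of one of the miR-125b hairpins, read 85.0 units with Wnt3a, 88.5 units with Wnt4, 118 units with GFP and 156 units with Wnt5a. Above the blank mean that is 14.1 units with Wnt4 and 58.9 units with Wnt5a, and the Wnt4 spot lay just over its limit of 86.9 units. The difference was 0.61 ± 0.16 (spot-noise SE). It was 0.14 with the background column subtracted, 1.89 with plain subtraction of the blank mean and 1.56 in the authors' deposited table. miR-5129-5p read 148 units with Wnt4, 168 units with GFP, 178 units with Wnt3a and 255 units with Wnt5a, a difference of 0.51 ± 0.16 (spot-noise SE). Here the Wnt5a array stood above the other 3, whose normalized levels lay between 7.16 and 7.29 against 7.80. For miR-1983 the Wnt4 array stood below the other 3, with 119 units against 194 units with Wnt5a, 209 units with Wnt3a and 221 units with GFP. Its difference was 0.48 ± 0.16 (spot-noise SE), and it stayed above 0 in all 18 alternatives that gave a value.

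**Figure D2:**
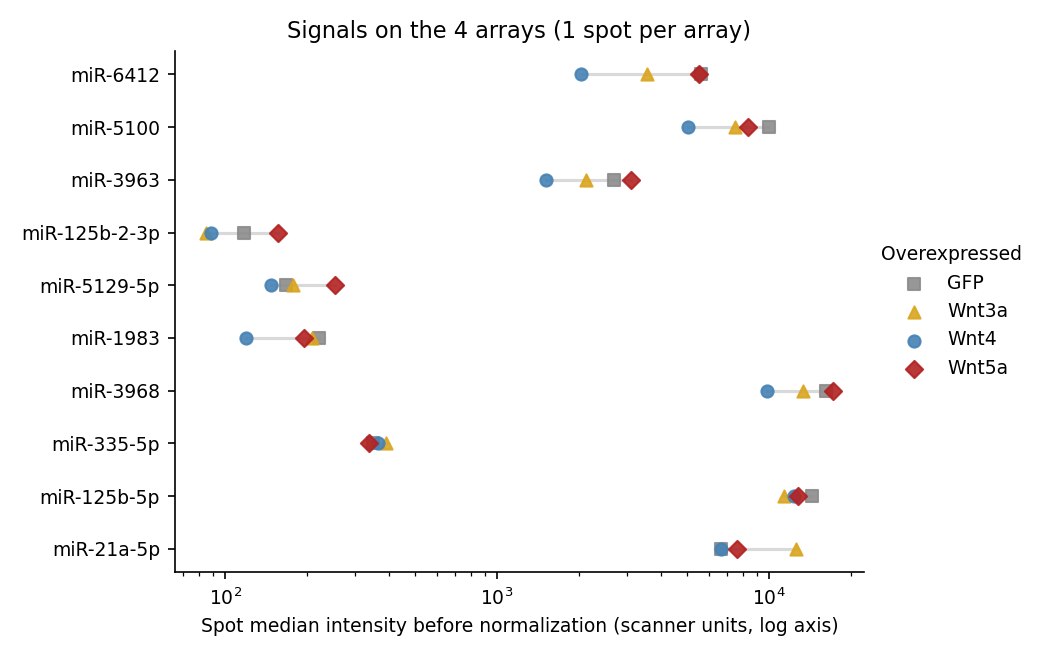
Spot median intensities before normalization (scanner units, log axis) of the 7 miRNAs higher and the 3 lower with Wnt5a, 1 spot per array, with the 4 arrays as symbols. For miR-6412 the Wnt4 array (2042 units) lies below the other 3 (3553 to 5631 units), while for miR-125b-5p and miR-335-5p the Wnt4 and Wnt5a arrays nearly coincide.

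Shared letters were looked for among the 7 higher miRNAs after their values were seen, so what follows is a description. miR-5100 and miR-3968 share the 9 letters CGAAUCCCA, from base 2 of the one and base 1 of the other. miR-3963 and miR-3968 share AUCCCACU, from base 4 of each. The 6 letters common to all 3, AUCCCA, occur on the mature strand in 7 of 1679 mature mouse miRNAs in the table (0.417%). Of those 7, 5 were detected on both arrays. The other two differed by 0.19 for miR-7679-3p and by -0.11 for miR-191-5p. miR-6412 and miR-5100 both begin with UCGAA, which 3 of the 1679 hold (0.179%), the third being miR-7223-3p, detected on neither array. Probe sequences were not used here, so how far a probe for one of these miRNAs takes up another was not tested.

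The 3 lowest differences were those of miR-335-5p, miR-125b-5p and miR-21a-5p, whose raw signals with the 2 Wnts lay close together. miR-335-5p, from an intron of the imprinted gene Mest and described as a regulator of the Wnt inhibitor Dkk1, read 338 units with Wnt5a, 351 units with GFP, 364 units with Wnt4 and 392 units with Wnt3a. Its difference was -0.38 ± 0.16 (spot-noise SE). miR-125b-5p, which is abundant in mesenchymal cells, read 12726 units with Wnt5a and 12399 units with Wnt4, against 14365 units with GFP and 11306 units with Wnt3a. Its difference was -0.34 ± 0.11 (spot-noise SE), and 0.04 without normalization between arrays. miR-21a-5p, a widely expressed miRNA that TGF-beta raises in several cell types, read 7619 units with Wnt5a, 6673 units with Wnt4, 6669 units with GFP and 12510 units with Wnt3a. Its difference was -0.34 ± 0.11 (spot-noise SE), but 0.19 without normalization, 0.10 with median scaling and 0.14 with scaling on the bright control probes. In all, miR-21a-5p lay above 0 in 5 of 19 alternatives, upper-quartile scaling and cyclic loess among them. The direction of miR-21a-5p between the 2 arrays therefore depends on the scaling. miR-125b-5p lay above 0 in 2 of 19 alternatives, without normalization and with the background column subtracted. Both lie among the brightest spots, as do miR-5100 and miR-3968, where neighbouring ranks are far apart in level. The part of this spacing in their differences was not tested.

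Other miRNAs described in bone and cartilage differed less. miR-3960, which with miR-2861 has been described as promoting osteoblast differentiation, read 1640 units with GFP, 1468 units with Wnt4, 2309 units with Wnt3a and 2096 units with Wnt5a, and differed by 0.32 ± 0.11 (spot-noise SE). Its partner miR-2861 lay the other way, at -0.14, with 3073 units with Wnt4 and 3627 units with Wnt5a, but it lay above 0 in 7 of 19 alternatives, among them 0.23 without normalization and 0.14 with median scaling. The arms of miR-140, a cartilage miRNA from the Wwp2 gene, read 2096 units with Wnt4 and 2142 units with Wnt5a for miR-140-5p, and 5582 units and 5727 units for miR-140-3p. Both were far lower with Wnt3a, at 535 units and 1135 units. Between Wnt5a and Wnt4 they differed by -0.17 and -0.08, each within 2 spot-noise SEs, and both lay above 0 without normalization and with the background column subtracted.

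The miRNAs fall into families that share a seed and clusters that share a transcript, described here by counts and medians beside those of all 486, of which 226 (46.5%) lay above 0 and 241 below it, with a median of 0.00. These lists were chosen with earlier results of the arrays known. The let-7 family, which holds back growth genes such as Hmga2, Lin28 and Ras, had 11 members compared, of which 9 lay below 0, 1 above it and 1 at 0. Its median was -0.16, from -0.28 for let-7i-5p to 0.06 for let-7k. let-7a-5p, its brightest member, read 5710 units with Wnt4 and 6083 units with Wnt5a, and differed by -0.19. let-7i-5p read 1938 units with Wnt4 and 1858 units with Wnt5a, and was below 0 in all 19 alternatives. The family's median lay below that of all miRNAs in all 19 alternatives, by 0.03 to 0.19. The sign of the family's own median is not fixed: on unnormalized levels it reached 0.09, beside 0.19 for the 486 miRNAs together. Brightness moves with this result: the 37 miRNAs named with numbers below 1000 that reached 1000 units on both arrays had a median of -0.08, with 26 of them below 0, against -0.02 for the 187 dimmer ones. How far brightness accounts for the family's position was not tested.

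The other families and clusters of long-known miRNAs lay on both sides. The miR-10 and miR-196 families, which lie among the Hox genes, had 2 members compared with a median of -0.24, and the miR-181 family 2 with a median of -0.17, all of them dim. Among those on the higher side, the p53-driven miR-34 family lay at a median of 0.02, with 4 of 5 members above 0, and the cluster of miR-188, miR-362, miR-500 and miR-532 at 0.05, with 3 of 5. In the miR-30 family, known in bone for targeting Runx2 and Smad1, 6 of 8 members lay below 0, with a median of -0.04. Its lowest was miR-30e-5p at -0.28, with 362 units with Wnt4 and 352 units with Wnt5a, and miR-30a-5p, with 913 units and 1001 units, lay at -0.16. The miR-17-92 cluster and its paralogs, which Myc drives in dividing cells, held 14 compared members, 11 of them below 0, with a median of -0.07. In the miR-199 and miR-214 cluster, typical of mesenchymal cells and driven there by Twist1, all 5 members lay below 0, from -0.27 for miR-214-5p to -0.07 for miR-199b-5p. Without normalization the medians of the miR-30, miR-17-92 and miR-199 lists also turned above 0, at most 0.15, though still below that of all miRNAs. None of these lists had a member past 1.3-fold either way.

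The miR-125, miR-99 and miR-100 families split by arm. All 5 members from 5p arms lay below 0, from -0.34 for miR-125b-5p to -0.14 for miR-125a-5p, and miR-100-5p and miR-99a-5p both lay at -0.17. The 3 members from 3p arms lay above 0, at 0.05 for miR-125b-1-3p, 0.18 for miR-125a-3p and 0.61 for miR-125b-2-3p. The 5p members were bright, from 963 units to 12399 units with Wnt4, and the 3p members dimmer, from 88.5 units to 639 units. By shared seed, the 3 members that hold the seed ACCCGUA (miR-99a-5p, miR-99b-5p and miR-100-5p) all lay below 0 with a median of -0.17, and the 10 that hold the let-7 seed GAGGUAG had 8 below 0 with the same median of -0.17. Seed AGCAGCA, of the miR-15 and miR-16 family that restrains cell-cycle genes, had 3 of 6 members on each side.

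The imprinted Dlk1-Dio3 cluster, a large set of miRNAs made from the maternal chromosome, lay on the other side. Of its 107 probes 9 were detected on both arrays, and 7 of the 9 lay above 0, with a median of 0.07. miR-494-3p read 934 units with Wnt4, 1147 units with GFP, 1301 units with Wnt5a and 1451 units with Wnt3a, and differed by 0.28 ± 0.16 (spot-noise SE). miR-487b-3p read 105 units with Wnt4 and 153 units with Wnt5a, and also differed by 0.28, and miR-3072-3p differed by 0.14. Detection ran the other way, as over all probes: 10 of the 107 were detected with Wnt5a and 14 with Wnt4, beside 502 and 547 of all 1898. Signals above blank, before normalization, summed over the 107 to 1444 units with Wnt5a and 1539 units with Wnt4. These sums include undetected probes that read below blank and so lower them. The median of the 107 was 86.0 units with Wnt5a and 70.5 units with Wnt4, under blank means of 96.9 and 74.4 units. The sums therefore do not give the direction of the detected members. Over all 1898 probes they summed to 298801 units and 257330 units. The median of the 9 lay above that of all miRNAs in all 19 alternatives, by 0.01 to 0.15. The series' title names Wnt and TGF-beta signalling. Among 10 compared members of a list of TGF-beta-responsive miRNAs 3 lay above 0 and 5 below, with a median of -0.02, and among 17 of a list linked to the Wnt pathway 6 lay above and 10 below, with a median of -0.03. A list of 48 miRNAs that regulate osteoblasts had 16 above and 29 below, with a median of -0.05.

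**Figure D3:**
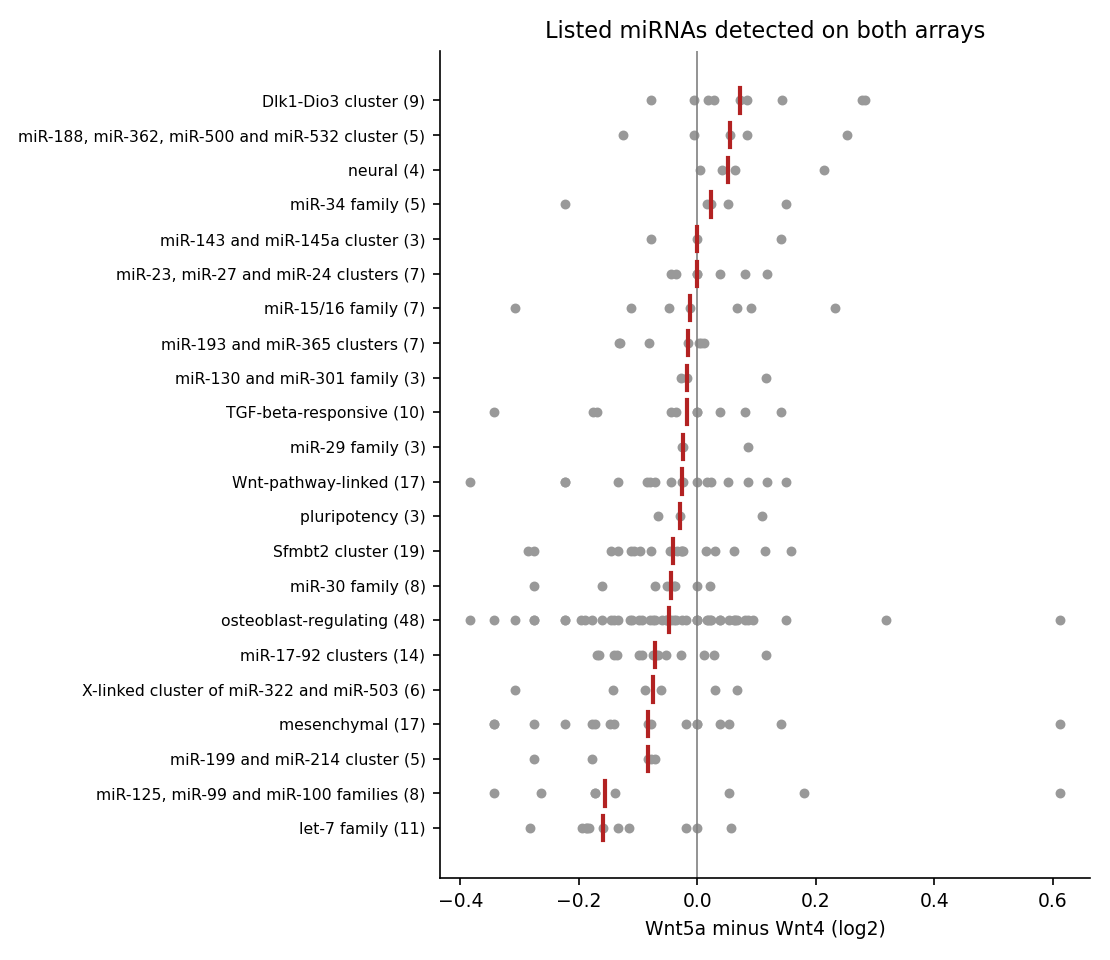
Each grey point is a listed miRNA detected on both arrays, placed by its log2 difference of Wnt5a minus Wnt4, and the red bar is the median of the list; the number compared is in brackets, and only lists with at least 3 compared are drawn. Their medians run from -0.16 (let-7) to 0.07 (Dlk1-Dio3 cluster), within the SD of 0.14 over all 486 miRNAs for all lists drawn but let-7 and the miR-125, miR-99 and miR-100 families.

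Both arms were compared for 46 hairpins. The arms lay on the same side of 0 in 23 of them, and their differences correlated at r = -0.18 across hairpins, some of which share a mature arm. The median gap between arms was 0.10, beside a median absolute difference of 0.08 over all 486 miRNAs. Mir125b-2 had the widest gap, with -0.34 for the 5p arm and 0.61 for the 3p arm. In Mir322, whose host cluster on the X chromosome restrains the cell cycle, the 5p arm lay at 0.07 and the 3p arm at -0.31. In Mir34b they lay at 0.15 and -0.22.

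**Figure D4:**
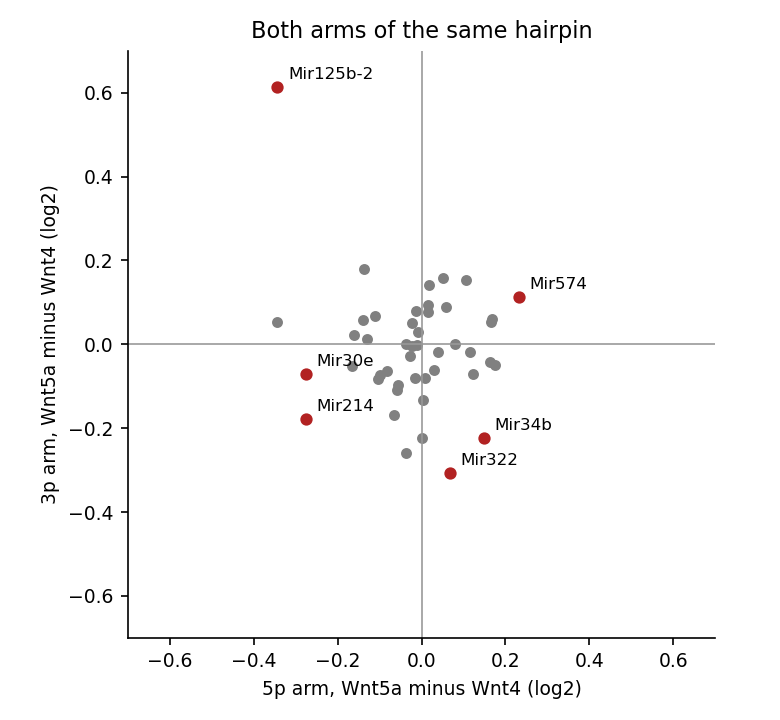
Each point is 1 of the 46 hairpins with both arms detected on both arrays, with the log2 difference of Wnt5a minus Wnt4 of the 5p arm on the x axis and of the 3p arm on the y axis. The points show no common slope (r = -0.18), and Mir125b-2 lies apart at -0.34 and 0.61.

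Among the 16 miRNAs detected with Wnt5a and not with Wnt4, 1 reached a bound of 1.5-fold. This was miR-654-5p, another Dlk1-Dio3 miRNA. It read 151 units with Wnt5a, against 64.7 units with Wnt3a, 65.3 units with Wnt4 and 84.4 units with GFP, so it stood out on the Wnt5a array from all 3 others. Because it was not above the limit with Wnt4, only a bound can be given, and it was at least 1.5-fold higher with Wnt5a. The next brightest, miR-7019-5p and miR-5046, were at least 1.16-fold and 1.15-fold higher. Of the 61 detected with Wnt4 and not with Wnt5a, none reached a bound of 1.5-fold. The brightest, miR-182-5p, read 120 units with Wnt4 and 93.5 units with Wnt5a and was at least 1.36-fold lower with Wnt5a. miR-3544-3p, also from the Dlk1-Dio3 region and within the span of Rtl1, followed with 116 units and 94.1 units, at least 1.31-fold lower. The spots of miR-182-5p, miR-3544-3p and the next brightest, miR-5615-5p, all lie in block 8 of the printed array. The part of position in these readings was not tested.

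Levels of cell-type markers were close on both arrays. Of 23 mesenchymal probes, 17 were detected on both, led by miR-125b-5p. Among the 17, 4 lay above 0 and 11 below, with a median of -0.08. Signals above blank of the 23, before normalization, summed to 37592 units with Wnt5a and 34670 units with Wnt4. Over all 1898 probes the sums were 298801 units and 257330 units. Probes of the liver (2), endothelial (4) and epithelial (14) lists were detected on neither array, among them both arms of miR-122. Of 11 blood cell probes 1 was detected on both arrays, miR-451a at 119 units with Wnt5a and 108 units with Wnt4, and of 15 muscle probes also 1, miR-206-3p. Of 19 neural probes 4 were, all above 0, with a median of 0.05. Of 28 pluripotency probes 3 were, with a median of -0.03. The medians of the 32 printed blocks of the array, over 7 to 24 miRNAs each, ran from -0.14 to 0.14, and the part of position in the differences was not tested. For the 4 miRNAs past 1.5-fold the block median was 0.06 for miR-6412, 0.08 for miR-5100, 0.04 for miR-3963 and 0.00 for miR-125b-2-3p.

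All 7 higher miRNAs stayed above 0 in every alternative that gave a value, and miR-335-5p stayed below 0 in all but one, where the background column was subtracted (0.67). That column correlated with the spot's own signal (r = 0.945 with Wnt5a and 0.985 with Wnt4). Subtracting it brought miR-5100 to 3.19, miR-3968 to 6.51 and miR-21a-5p to -4.67. The lowest value of miR-5100 was 0.24, in the authors' deposited table, whose median over all listed miRNAs was -0.31.

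**Figure D5:**
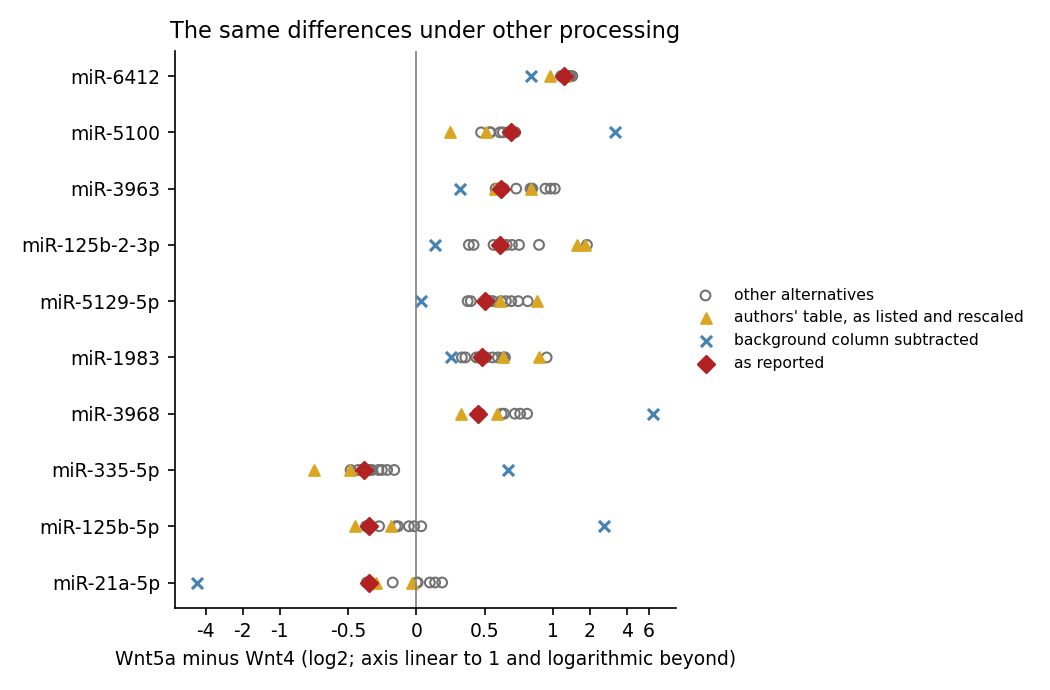
Log2 differences of Wnt5a minus Wnt4 of the 10 leading miRNAs as reported (red), under the other alternatives (open circles), in the authors' deposited table as listed and rescaled (triangles) and with the background column subtracted (crosses); the axis is linear to 1 and logarithmic beyond. miR-6412 stays between 0.84 and 1.44, while miR-21a-5p lies on both sides of 0.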

How the data were processed

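Total RNA of 4 samples, 1 array each, was labelled with Hy5 for LNA miRNA arrays, per the labels' protocols. The deposited scanner files hold the median intensity and a background median of 3200 spots per array, per the file headers. The scanner model, the feature extraction software and the genome build are not given in the sources used here. An intensity in the authors' deposited table is listed for part of the miRNAs and could be rebuilt, to within 0.05 units, by taking the blank mean off each spot median and scaling every array by its own factor.

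Spot medians were corrected with normexp (limma 3.58.1 in R 4.3.3, offset 50) over all spots, and the 1898 miRNA probes were quantile-normalized over the 4 arrays. Of 1900 miRNA probes, 2 with a bad-spot mark on GFP were left out, and 12 carried several names. The detection limit lay 2 SD over the mean of 896 blank spots, both taken from their middle 95%. Differences were taken over miRNAs detected on both arrays. Spot noise is the spread of control-probe differences over 5 probes of at least 1000 units, with 8 spots each, and over 19 dim ones. These differences were taken after background correction and before quantile normalization. No control probe read between 135 and 1074 units, so the noise in that range is assumed. Bounds set the brighter signal against the higher of the other array's lowest detected level and the probe's own. The steps were tested on simulated data in which only probes well above blank changed, by at least 2-fold. Smaller changes, and changes of probes near blank, were not simulated. Precision is limited by the number of arrays.

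Named miRNAs were the 12 with the widest differences each way above the median level, the 5 widest each way at any level, the 3 brightest each way detected on 1 array only, the 5 brightest, miRNAs known from earlier results, and up to 4 bright members and the widest of each list. The 1.3-fold threshold was set after the differences were seen, and miR-487b-3p and others named beside a list range, a motif or a hairpin were chosen after their values were seen. The comparison, its lists and its named miRNAs were chosen with earlier results of these data known. Of 1898 probe names 1612 matched RefSeq's mature miRNAs, 400 of them among the 486 compared.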

Additional observations from a re-analysis of the deposited data

How the results depend on the processing

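The comparison was recomputed under 19 alternatives, of which subtracting the block median and the limit from spots without probe were chosen after seeing the data, as was the use of the limit from negative control probes for the counts. Against 1 miRNA at least 2-fold higher with Wnt5a, plain subtraction of the blank mean gave 3, the background column 25, no normalization between arrays 2, the authors' deposited table rescaled 3 and no filter on dim probes 2. Against 0 at least 2-fold lower, the background column gave 22, the values of the authors' deposited table gave 13 and its rescaled form gave 1. At 1.5-fold higher (4) plain subtraction gave 17, the background column 41, no normalization 7, scaling on the bright control probes 7 and the authors' deposited table rescaled 12. At 1.5-fold lower (0) they were 3 with plain subtraction, 45 with the background column, 83 in the authors' deposited table, 26 in its rescaled form and 4 with no filter. At 1.3-fold (7 higher and 1 lower) plain subtraction gave 43 and 25, the background column 54 and 65, and no normalization 36 and 0. The authors' deposited table gave 8 higher and 192 lower at 1.3-fold, and its rescaled form 26 and 69. The miRNAs detected with Wnt5a alone numbered 49 instead of 16 when spots without probe set the limit, and those with Wnt4 alone 21 instead of 61 at a limit of 5 SD and 24 with the limit from negative control probes. Scaling set the split: 46.5% of miRNAs lay above 0 as reported, 94.9% without normalization (median 0.19), 81.9% with median scaling (0.10), 88.3% with scaling on the bright control probes (0.14) and 8.42% in the authors' deposited table (-0.31). Of 2007 recomputed differences of 109 miRNAs 440 moved by more than the spot-noise SE, and of 524 recomputed medians of 28 lists 93 moved. The 2007 include alternatives that changed only the detection limit or the filter, in which a miRNA's own difference could not move. No paired analysis was possible because each group has 1 array and the labels give no replicate numbers.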
